A study of Sus scrofa with 9 samples.

Results

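ERBB3, STMN2, DCX and NES are 4 genes best known from peripheral glia, growing axons and undifferentiated cells, and their RNA was followed here in the developing back muscle of pigs. Each symbol matched 1 entry of a table of 19643 gene entries, and all 4 entries passed the filter on low values, a mean of at least 1 FPKM over the 9 libraries. The entries were ENSSSCG00000020725 for ERBB3, ENSSSCG00000006160 for STMN2, ENSSSCG00000012585 for DCX and ENSSSCG00000006474 for NES. The libraries were made from embryonic longissimus dorsi, the long muscle beside the spine, with 3 libraries of the Tibetan pig and 3 of the Wujin pig, both indigenous Chinese breeds, and 3 of the Large White pig, an introduced breed. No treatment or gene change is named for any group, and all are labelled embryonic, without a day of gestation. Whether a breed's libraries are from different animals is not stated, so the p-values reflect only how far these libraries vary, which may be technical variation.

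ERBB3 is a receptor of the epidermal growth factor receptor family that binds neuregulins and, lacking strong kinase activity of its own, signals by pairing with ERBB2. Axons supply neuregulin, and Schwann cell precursors depend on ERBB3 to survive and to follow nerves into muscle. STMN2 is a stathmin that binds tubulin in growth cones of neurons, and DCX, doublecortin, binds and stabilises microtubules in migrating young neurons. NES, nestin, is an intermediate filament protein of neural progenitors that is also made by myoblasts and young muscle fibres, so its RNA does not mark nerve tissue when found in muscle. In bulk tissue such as this, fewer cells of a type and less RNA per cell cannot be told apart. Which cells made the RNA of ERBB3, STMN2 or DCX cannot be read from such values either.

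The Tibetan libraries stood apart from the rest, with most genes at lower values. The summed FPKM, the fragment count scaled by transcript length and library size, ran from 590532 to 677783 in Tibetan, from 505042 to 550483 in Wujin and from 541521 to 586937 in Large White libraries. Relative depth, judged from the steps between low values, differed by at most 1.22 times from that of Large White 1 and no counts are given, so the depth is known only in relative terms. The median entry tested had 3.15 to 3.61 FPKM in Tibetan, 4.84 to 6.27 FPKM in Wujin and 6.72 to 7.20 FPKM in Large White libraries. The skeletal actin gene ACTA1 is listed at 0 in Tibetan 2, against 37424 and 41829 FPKM in Tibetan 1 and 3.

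ERBB3 was under 1 FPKM in Tibetan muscle, and the other breeds overlapped at a far higher level. Its level was 0.213, 0.344 and 0.255 FPKM in Tibetan 1, 2 and 3. In Wujin 1, a and b it was 33.3, 36.3 and 28.9 FPKM, and in Large White 1, 2 and 3 it was 32.8, 32.6 and 31.2 FPKM. Wujin a and b are libraries whose columns carry no distinct number. The Tibetan libraries lay far below all 6 others, and the Wujin values spanned the whole Large White range. Means were 0.271 ± 0.0671 FPKM in Tibetan, 32.9 ± 3.73 FPKM in Wujin and 32.2 ± 0.844 FPKM in Large White (SD, n = 3 each). On the log2(FPKM + 1) scale, which understates changes of low genes, ERBB3 fell by 4.71 (SE 0.12, adjusted p = 1.79e-08) in Tibetan against Large White. Here and below, adjusted p-values are from limma with Benjamini-Hochberg adjustment over the 13106 entries tested, and the threshold for a call is 0.05. Against Wujin, ERBB3 fell by 4.73 in Tibetan (SE 0.12, adjusted p = 2.69e-08). The difference Wujin minus Large White was 0.02, with a 95% interval of -0.24 to 0.28 (adjusted p = 0.909).

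STMN2 was the lowest of the 4 genes outside Tibetan muscle and differed between all 3 breeds. Its level was 0.0553, 0.435 and 0.0667 FPKM in Tibetan 1, 2 and 3. Wujin 1, a and b had 2.55, 1.15 and 2.10 FPKM, and in Large White 1, 2 and 3 it was 3.99, 3.93 and 4.99 FPKM. No breed overlapped another, and Tibetan 2 stood above the other Tibetan libraries. Means were 0.186 ± 0.216 FPKM in Tibetan, 1.93 ± 0.716 FPKM in Wujin and 4.31 ± 0.594 FPKM in Large White (SD, n = 3 each). STMN2 fell by 2.17 on the log2 scale in Tibetan against Large White (SE 0.21, adjusted p = 1.49e-05) and fell by 1.29 in Tibetan against Wujin (adjusted p = 0.000523). Wujin minus Large White was -0.88 (SE 0.21, adjusted p = 0.0455), a call just inside the threshold. That call was lost without Tibetan 1, Tibetan 3, Wujin a or any of the Large White libraries, with adjusted p-values of 0.0628, 0.0615, 0.0848, 0.0946, 0.13 and 0.162 in that order.

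DCX differed between all 3 breeds, with Wujin between the other two. Its level was 0.0819, 0.124 and 0.236 FPKM in Tibetan 1, 2 and 3. In Wujin 1, a and b it was 3.35, 4.74 and 3.59 FPKM, and in Large White 1, 2 and 3 it was 23.8, 30.5 and 40.96 FPKM. All 3 ranges were apart, and Large White 3 was the highest library. Means were 0.147 ± 0.0794 FPKM in Tibetan, 3.89 ± 0.744 FPKM in Wujin and 31.7 ± 8.66 FPKM in Large White (SD, n = 3 each). DCX fell by 4.80 on the log2 scale in Tibetan against Large White (SE 0.20, adjusted p = 1.21e-07), fell by 2.72 in Wujin against Large White (SE 0.20, adjusted p = 0.000353) and fell by 2.08 in Tibetan against Wujin (adjusted p = 1.57e-05). The ratio of the means made DCX 215-fold lower in Tibetan than in Large White and 8.16-fold lower in Wujin than in Large White.

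NES was by far the most abundant of the 4 per transcript length. Its level was 4.95, 4.09 and 8.16 FPKM in Tibetan 1, 2 and 3. Wujin 1, a and b had 425, 381 and 269.8 FPKM, and in Large White 1, 2 and 3 it was 279, 271 and 302 FPKM. The Tibetan libraries were far below the rest, while Wujin b lay just under the Large White values and the other Wujin libraries above them. Means were 5.73 ± 2.14 FPKM in Tibetan, 359 ± 80.2 FPKM in Wujin and 284 ± 15.8 FPKM in Large White (SD, n = 3 each). NES fell by 5.45 on the log2 scale in Tibetan against Large White (SE 0.23, adjusted p = 1.49e-07) and fell by 5.76 in Tibetan against Wujin (SE 0.23, adjusted p = 1.45e-07). Wujin minus Large White was 0.31, with a 95% interval of -0.22 to 0.84 (adjusted p = 0.368).

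**Figure D1:**
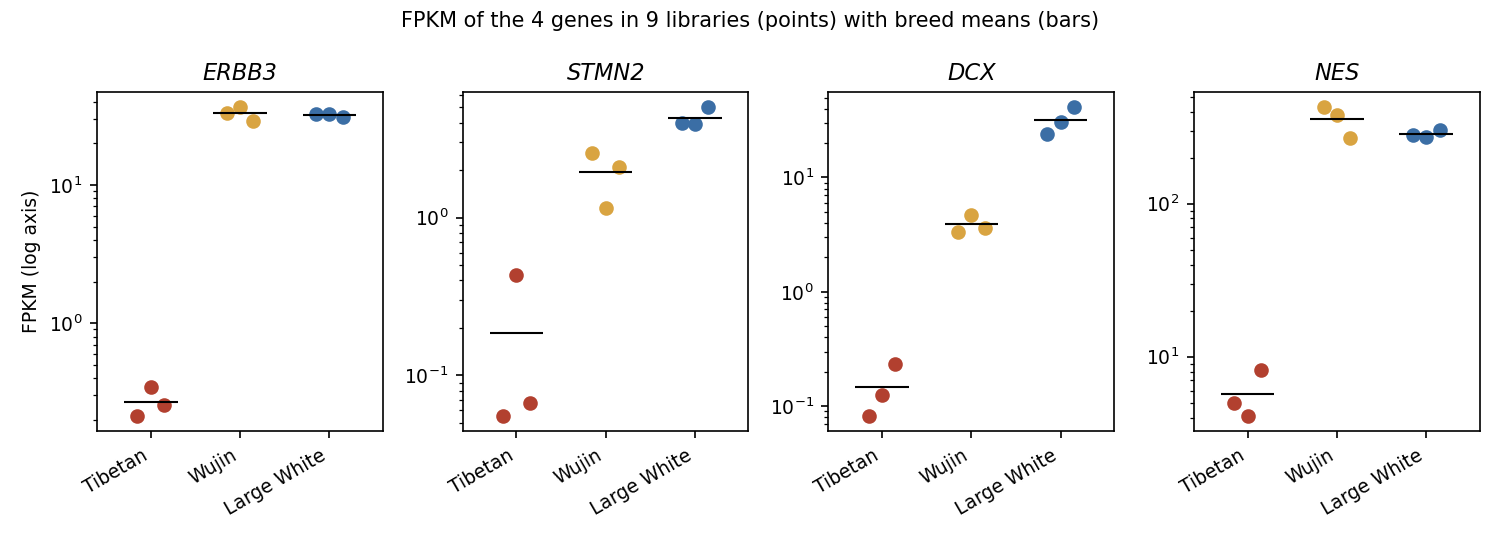
FPKM of each gene on a log axis in the 9 libraries (points) by breed, with the breed mean as a bar. The Tibetan points lie lowest in every panel; Wujin and Large White share a range for ERBB3 and NES, and are apart for STMN2 and for DCX, at 3.89 and 31.7 FPKM on average.

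Between Tibetan and Large White, all 4 genes were called lower in Tibetan, as were 63.2% of all entries tested, and all 4 had no overlap between the breeds, as did 66.5% of entries in the lower direction. In the same comparison 13.0% of entries were called higher. With median-ratio scaling, 33.0% were called lower and 32.4% higher, a near-even split expected because that scaling centres the typical gene. With equal totals without the 50 highest entries, 7235 entries were called lower and 2166 higher. The cause of the excess of lower entries was not tested. ERBB3, STMN2 and DCX were under 1 FPKM in every Tibetan library and passed the filter on low values only through the other breeds. The filter thus favoured their lower direction in Tibetan, as it did for every other tested gene with a Tibetan mean under 1 FPKM. In Tibetan against Wujin all 4 were again called lower, beside 53.9% of entries, and without overlap, beside 53.5%. In Wujin against Large White, DCX and STMN2, 2 of the 4, were called lower, beside 4.85% of entries; both had no overlap, beside 35.3%. The 3 comparisons share libraries, and so are not independent of each other. The median of all entries tested was -0.77 on the log2 scale in Tibetan minus Large White, -0.20 in Wujin minus Large White and -0.55 in Tibetan minus Wujin. Relative to that median in Tibetan minus Large White, ERBB3 was at -3.94, STMN2 at -1.40, DCX at -4.03 and NES at -4.68. NES ranked 31, DCX 60, ERBB3 69 and STMN2 1219 from the lowest change among the 13106 entries. In Wujin minus Large White, DCX ranked 19 and STMN2 635 from the lowest, and relative to the median DCX was at -2.52, STMN2 at -0.68, ERBB3 at 0.22 and NES at 0.51. A test over all 3 breeds at once (limma's F test) gave adjusted p-values of 2.69e-08 for ERBB3, 4.51e-05 for STMN2, 2.63e-07 for DCX and 1.58e-07 for NES. An exact two-sided permutation test of each gene alone cannot go below 0.1 with 3 against 3, and it gave 0.1 for every comparison called; for Wujin against Large White it gave 0.8 for ERBB3 and 0.4 for NES. Leaving out Tibetan 2 gave values of -4.75 for ERBB3, -2.32 for STMN2, -4.79 for DCX and -5.27 for NES in Tibetan minus Large White. With median-ratio scaling, the changes in Tibetan minus Large White were -4.16 for ERBB3, -1.74 for STMN2, -4.31 for DCX and -4.55 for NES, all still called.

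**Figure D2:**
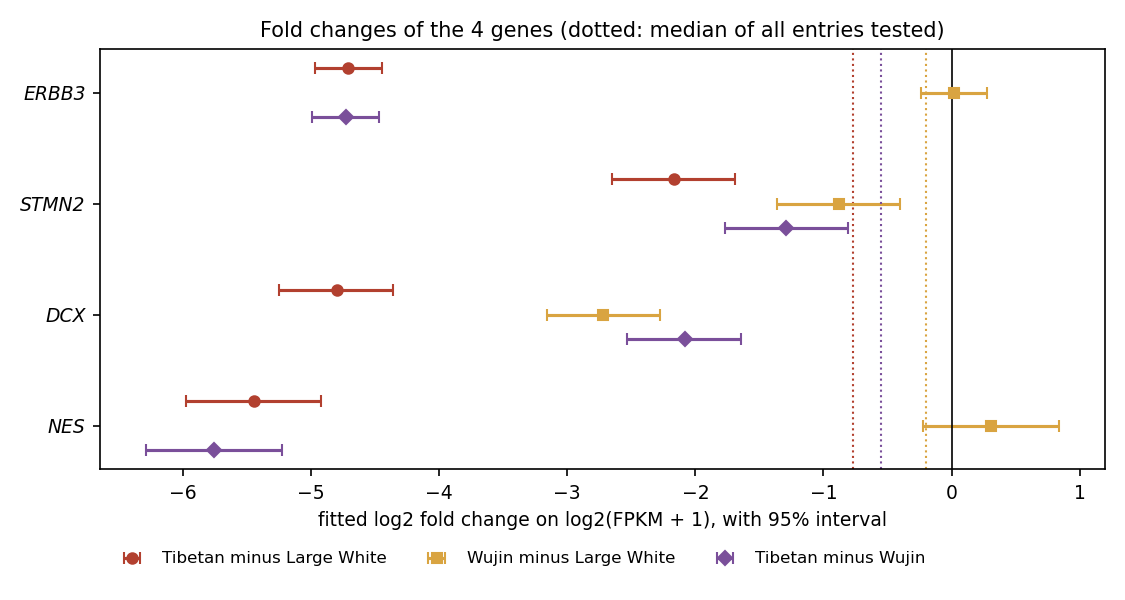
Fitted log2 fold change of each gene (points) with its 95% interval (bars) for Tibetan minus Large White, Tibetan minus Wujin and Wujin minus Large White; dotted lines mark the median of all entries tested in each comparison. The Wujin minus Large White intervals cover 0 for ERBB3 and NES, and lie below 0 for STMN2 and DCX.

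ERBB3's partners and ligands did not follow it as one group. Besides ERBB3, 30 genes of neuregulin and ERBB signalling were listed, 24 were in the table and 19 were tested. Tibetan muscle had 15 called lower and 4 higher than Large White, beside 63.2% and 13.0% of all entries, with a median log2 change of -1.34 against the -0.77 of all entries. With median-ratio scaling the counts were 10 lower and 4 higher, beside 33.0% and 32.4% of all entries. ERBB2, the kinase partner of ERBB3, averaged 9.61 ± 3.87 FPKM in Tibetan, 49.8 ± 17.7 FPKM in Wujin and 33.4 ± 1.65 FPKM in Large White (SD, n = 3 each). ERBB2 fell by 1.76 in Tibetan against Large White (adjusted p = 0.000482), a call lost with median-ratio scaling, where ERBB2 was at -0.84 (adjusted p = 0.0676). The ERBB3 to ERBB2 ratio within a library was 0.0363, 0.0253 and 0.0272 in Tibetan 1, 2 and 3. In Wujin 1, a and b that ratio was 0.478, 1.03 and 0.646, and in Large White 1, 2 and 3 it was 0.931, 0.991 and 0.975. In FPKM, the RNAs of the pair were thus close to parity in Large White muscle, while ERBB3 RNA was far the rarer in Tibetan muscle. The Tibetan ratios rest on ERBB3 at only 0.213 to 0.344 FPKM, and receptor protein was not measured.

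Among the ligands, a neuregulin was lower and 3 ligands of EGFR were higher in Tibetan than in Large White muscle. NRG2, the neuregulin, averaged 0.0429 FPKM in Tibetan, 1.66 FPKM in Wujin and 1.79 FPKM in Large White, and fell by 1.42 in Tibetan against Large White (adjusted p = 0.00022). NRG1 and NRG3 were near 0 in every library and were not tested. ERBB4, the other neuregulin receptor, was not tested either, with 0.101 to 0.167 FPKM in Tibetan, 0.411 to 1.20 FPKM in Wujin and 0.921 to 1.07 FPKM in Large White libraries. BTC, betacellulin, a ligand of EGFR and ERBB4, averaged 20.6 ± 5.73 FPKM in Tibetan, 0.737 ± 0.692 FPKM in Wujin and 0.126 ± 0.109 FPKM in Large White (SD, n = 3 each). BTC rose by 4.23 in Tibetan against Large White (adjusted p = 2.94e-06) and by 3.69 in Tibetan against Wujin (adjusted p = 8.63e-06). BTC passed the filter on low values only through its Tibetan level, and NRG2 only through its Wujin and Large White levels. EGF, the growth factor that names the family, averaged 7.37 FPKM in Tibetan, 4.83 FPKM in Wujin and 1.29 FPKM in Large White, and rose by 1.79 in Tibetan against Large White (adjusted p = 0.00141). HBEGF, a ligand of the same receptors as BTC, averaged 14.1 FPKM in Tibetan, 4.34 FPKM in Wujin and 4.86 FPKM in Large White, and rose by 1.33 in Tibetan against Large White (adjusted p = 0.000342). Between Wujin and Large White 1 of the 19 genes was called, LRIG3, which was lower in Wujin, where 4.85% of all entries were called lower and 1.67% higher; it is a membrane protein of a family that includes negative regulators of ERBB receptors. LRIG3 averaged 0.815 FPKM in Tibetan, 7.59 FPKM in Wujin and 13.6 FPKM in Large White, and its change of -0.77 in Wujin (adjusted p = 0.034) was lost in 7 of the 18 alternatives run.

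Other Schwann cell and glial genes went both ways. Besides ERBB3, 25 were listed, 15 were in the table and 6 were tested; SOX10, S100B, FOXD3, PMP22 and MBP were not matched by symbol and are not analysed here. In Tibetan against Large White 4 were called lower and 2 higher, beside 63.2% and 13.0% of all entries, and with median-ratio scaling 3 were lower and 2 higher, beside 33.0% and 32.4%. Against Wujin, 4 were lower and 1 higher in Tibetan, beside 53.9% and 13.8% of all entries. NGFR, the low-affinity neurotrophin receptor carried by immature Schwann cells, averaged 0.561 ± 0.235 FPKM in Tibetan, 17.7 ± 2.99 FPKM in Wujin and 20.9 ± 2.44 FPKM in Large White (SD, n = 3 each). NGFR fell by 3.82 in Tibetan against Large White (adjusted p = 1.56e-07) and was not called in Wujin against Large White, where it was at -0.24 (adjusted p = 0.334). FABP7, a fatty acid binding protein of Schwann cell precursors, averaged 0.0690 FPKM in Tibetan, 1.02 FPKM in Wujin and 2.31 FPKM in Large White, and fell by 1.63 in Tibetan against Large White (adjusted p = 9.56e-06). FABP7 was also the 1 gene of the 6 called in Wujin against Large White, at -0.72 (adjusted p = 0.0346), where 4.85% of all entries were called lower; that call was lost in 12 of the 17 alternatives run. CNP, an enzyme of myelinating glia, averaged 4.24 FPKM in Tibetan, 16.4 FPKM in Wujin and 16.3 FPKM in Large White, and fell by 1.73 in Tibetan against Large White (adjusted p = 8.11e-06).

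EGR2, the transcription factor that switches on myelin genes, averaged 2.06 FPKM in Tibetan, 0.793 FPKM in Wujin and 0.556 FPKM in Large White, and rose by 0.91 in Tibetan against Large White (adjusted p = 0.01). ERBB3 and EGR2, both listed as Schwann cell markers, moved in opposite directions, also with median-ratio scaling, where EGR2 was at 1.43. EGR2 passed the filter on low values only through its Tibetan level, so its direction among the tested genes was favoured by the filter. The lower direction of ERBB3, NGFR and FABP7, each under 1 FPKM on average in Tibetan, was favoured by the filter in the same way. Without ERBB3, the summed level of the 15 genes was 18.6 to 29.8 FPKM in Tibetan, 49.0 to 56.6 FPKM in Wujin and 44.8 to 57.3 FPKM in Large White libraries. NGFR and CNP made up most of that sum in Wujin and Large White, so it mainly follows them and not the list as a whole.

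Besides STMN2 and DCX, 28 stathmin, doublecortin and microtubule regulators were listed, 18 were in the table and 13 were tested. In Tibetan muscle 10 were called lower and 2 higher than in Large White, beside 63.2% and 13.0% of all entries, with a median log2 change of -1.26. With median-ratio scaling the counts were 7 lower and 2 higher, beside 33.0% and 32.4%. In Wujin against Large White 1 of the 13 was called lower, STMN1, beside 4.85% of all entries. STMN1, the widely expressed stathmin of dividing cells, averaged 9.14 ± 1.76 FPKM in Tibetan, 282 ± 12.3 FPKM in Wujin and 489.5 ± 15.7 FPKM in Large White (SD, n = 3 each). STMN1 fell by 5.61 in Tibetan against Large White (adjusted p = 1.77e-08), and its change of -0.79 in Wujin minus Large White (adjusted p = 0.0214) was lost in 5 of the 18 alternatives run. The ratio of STMN2 to STMN1 overlapped between all breeds, at 0.00629 to 0.0394 for Tibetan, 0.00401 to 0.00873 for Wujin and 0.00800 to 0.0100 for Large White libraries.

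DCX was called lower in Wujin than in Large White muscle, and its tested relative DCLK2 and the microtubule gene MAP1B were not. The difference between the genes was not tested. DCLK2, a doublecortin-like kinase, averaged 0.172 ± 0.0833 FPKM in Tibetan, 1.80 ± 0.569 FPKM in Wujin and 1.88 ± 0.749 FPKM in Large White (SD, n = 3 each), and was at -0.02 in Wujin minus Large White (adjusted p = 0.955). MAP1B, a microtubule protein of growing axons, averaged 1.49 ± 0.188 FPKM in Tibetan, 13.4 ± 1.95 FPKM in Wujin and 16.5 ± 1.63 FPKM in Large White (SD, n = 3 each), and was at -0.28 in Wujin minus Large White (adjusted p = 0.193). The DCX to MAP1B ratio was 0.0497, 0.0971 and 0.153 in Tibetan 1, 2 and 3. In Wujin 1, a and b it was 0.238, 0.422 and 0.239, and in Large White 1, 2 and 3 it was 1.63, 1.73 and 2.38. DCX was more abundant than MAP1B only in the Large White libraries among these 9. CDK5R1, the activator of the kinase that phosphorylates DCX, averaged 0.0564 FPKM in Tibetan, 6.52 FPKM in Wujin and 7.21 FPKM in Large White, and fell by 2.95 in Tibetan against Large White (adjusted p = 4.6e-07).

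Few genes that define mature neurons were read in any breed. Besides STMN2 and DCX, 34 neuron and axon genes were listed, 21 were in the table, 12 of these stayed under 1 FPKM in every library, and 4 were tested. In Tibetan against Large White 2 of the 4 were called lower and 1 higher, beside 63.2% and 13.0% of all entries. With median-ratio scaling 2 were lower and 2 higher, beside 33.0% and 32.4% of all entries. TUBB3, the tubulin of neurons, averaged 0.417 FPKM in Tibetan, 2.58 FPKM in Wujin and 2.87 FPKM in Large White, and fell by 1.44 in Tibetan against Large White (adjusted p = 0.000176). SNAP25, a protein of synaptic vesicle fusion, is listed at 0 in all Tibetan libraries and was at most 0.0324 FPKM in Wujin and 0.0739 FPKM in Large White. MAPT, the axonal microtubule protein tau, was higher in Tibetan muscle, with 11.1 ± 2.35 FPKM in Tibetan, 1.85 ± 0.464 FPKM in Wujin and 2.39 ± 0.088 FPKM in Large White (SD, n = 3 each), and rose by 1.82 in Tibetan against Large White (adjusted p = 1.19e-05). NEFL, the light neurofilament of axons, was not tested and had 0.0536 to 0.0591 FPKM in Tibetan, 0.694 to 0.905 FPKM in Wujin and 0.988 to 2.74 FPKM in Large White libraries. Without STMN2 and DCX, the summed level of the 21 genes was 12.1 to 22.2 FPKM in Tibetan, 23.5 to 28.5 FPKM in Wujin and 28.9 to 31.6 FPKM in Large White libraries. MAP1B, also on this list, held a large part of that sum in Wujin and Large White. The 7 matched markers of the central nervous system stayed under 1 FPKM in every library.

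**Figure D3:**
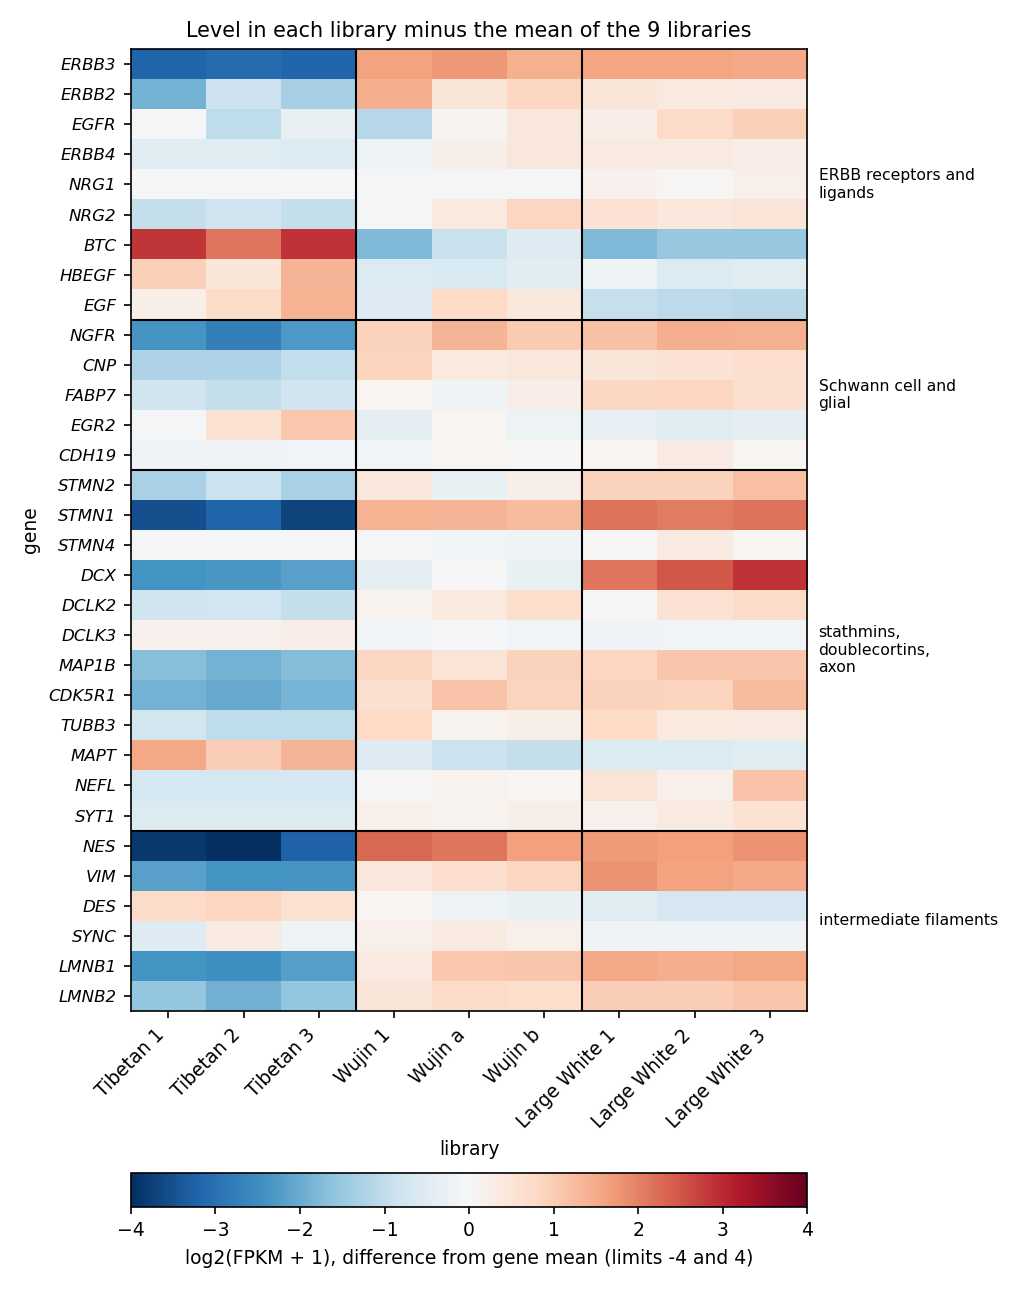
Level of ERBB receptors and ligands, Schwann cell and glial genes, stathmin, doublecortin and axon genes, and intermediate filament genes (rows) in each library (columns), as log2(FPKM + 1) minus the gene's mean over the 9 libraries. ERBB3, NGFR, STMN1, DCX and NES are blue, below their mean, in the 3 Tibetan libraries, and BTC, HBEGF, MAPT and DES are red, above their mean, there.

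The filament genes around NES went both ways. Besides NES, 20 intermediate filament genes and linkers were listed, 14 were in the table and 8 were tested. Tibetan muscle had 4 called lower and 2 higher than Large White, beside 63.2% and 13.0% of all entries, with a median log2 change of -0.47; with median-ratio scaling 3 were lower and 4 higher, beside 33.0% and 32.4%. VIM, vimentin, with which nestin forms filaments, averaged 164.8 ± 13.2 FPKM in Tibetan, 1296 ± 177 FPKM in Wujin and 2542 ± 257 FPKM in Large White (SD, n = 3 each). VIM fell by 3.94 in Tibetan against Large White (adjusted p = 7.47e-08) and fell by 0.98 in Wujin against Large White (adjusted p = 0.0116), the second call being lost without Large White 2 (adjusted p = 0.0608). DES, desmin, the filament of mature muscle fibres, averaged 2842 ± 237 FPKM in Tibetan, 1537 ± 208 FPKM in Wujin and 1101 ± 90.9 FPKM in Large White (SD, n = 3 each). DES rose by 1.37 in Tibetan against Large White (adjusted p = 2.18e-05) and by 0.89 in Tibetan against Wujin (adjusted p = 0.000423).

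The ratio of NES to DES was 0.00171, 0.00134 and 0.00316 in Tibetan 1, 2 and 3. In Wujin 1, a and b the NES to DES ratio was 0.241, 0.258 and 0.197, and in Large White 1, 2 and 3 it was 0.231, 0.260 and 0.287. Tibetan muscle held far less NES per DES, while the Wujin and Large White ranges overlapped. The NES to VIM ratio was 0.0275, 0.0263 and 0.0514 in Tibetan, 0.379, 0.295 and 0.183 in Wujin and 0.0992, 0.108 and 0.131 in Large White libraries, in the same order of libraries. On that ratio all 3 breeds were apart, with Wujin highest. The gap was smaller against MYMK, a gene of fusing myoblasts: the NES to MYMK ratio was 2.16, 0.682 and 1.65 in Tibetan, 2.74, 2.56 and 2.07 in Wujin and 2.46, 2.74 and 3.25 in Large White libraries. The Tibetan range of that ratio overlapped the Wujin range and lay below the Large White range. The gene pairs for ratios were chosen after their values were seen.

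**Figure D4:**
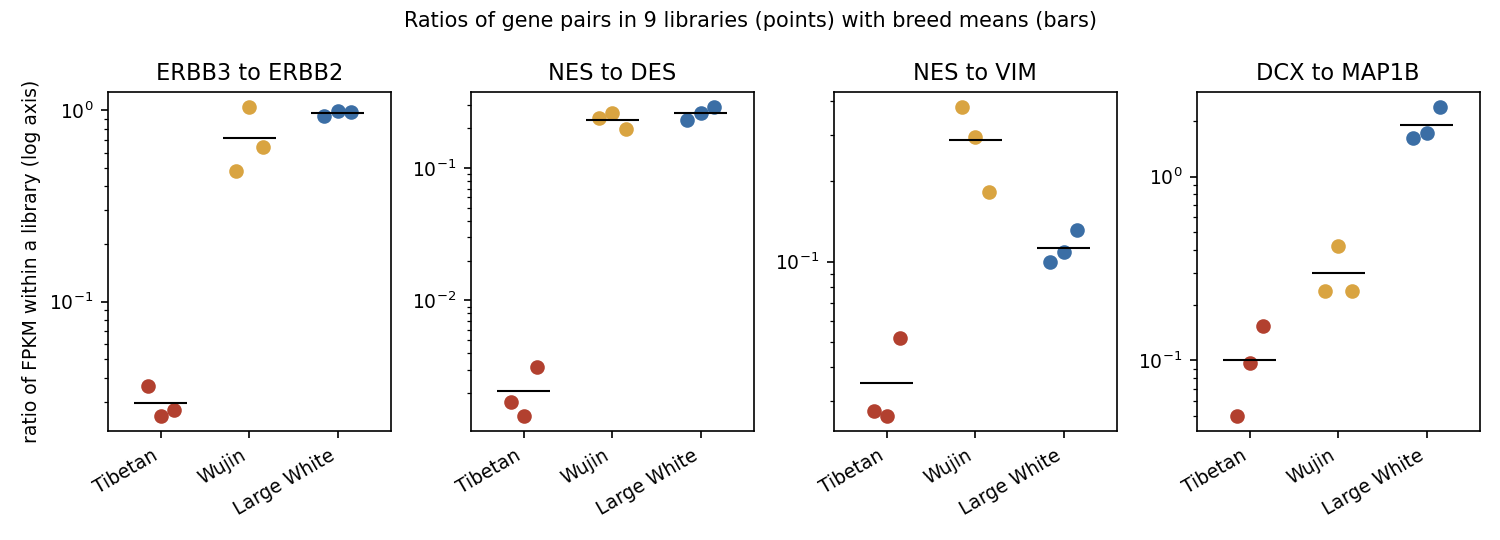
Ratio of FPKM within a library, on log axes, for ERBB3 to ERBB2, NES to DES, NES to VIM and DCX to MAP1B, with libraries as points and breed means as bars. The Tibetan libraries are lowest in all 4 panels, Wujin is highest for NES to VIM, and Large White is highest for DCX to MAP1B.

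NES is also a gene of muscle progenitors. Besides NES, 32 genes of muscle progenitors and myoblasts were listed, 21 were in the table and 20 were tested. Against Large White, 17 were called lower and 1 higher in Tibetan, beside 63.2% and 13.0% of all entries, with a median log2 change of -1.96; with median-ratio scaling 14 were lower and 3 higher, beside 33.0% and 32.4%. Wujin muscle had 1 called lower than Large White, EYA2, and 1 higher, LBX1, beside 4.85% and 1.67% of all entries; of the 17 alternatives run for each, EYA2 lost its call in 14 and LBX1 in 6. MYMK, myomaker, a membrane protein needed for myoblast fusion, averaged 4.41 ± 1.91 FPKM in Tibetan, 144.8 ± 13.1 FPKM in Wujin and 101.8 ± 10.7 FPKM in Large White (SD, n = 3 each), and fell by 4.31 in Tibetan against Large White (adjusted p = 6.49e-07). FGFR4, a growth factor receptor of myoblasts, averaged 3.46 FPKM in Tibetan, 55.3 FPKM in Wujin and 77.4 FPKM in Large White, and fell by 4.14 in Tibetan against Large White (adjusted p = 3.42e-08). MYF5, a determination factor of the muscle lineage, averaged 4.68 FPKM in Tibetan, 50.7 FPKM in Wujin and 46.9 FPKM in Large White, and fell by 3.11 in Tibetan against Large White (adjusted p = 1.1e-06).

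The neuromuscular junction, where motor axons, Schwann cells and muscle meet, had 17 of 23 listed genes in the table and 16 tested. Against Large White, 12 were called lower and 2 higher in Tibetan, beside 63.2% and 13.0% of all entries, and with median-ratio scaling 10 were lower and 4 higher, beside 33.0% and 32.4%. In Wujin MUSK was called lower, and COLQ and ETV4 were called higher, calls that were lost in 12 and 7 of the 18 alternatives run; 4.85% of all entries were called lower there and 1.67% higher. MUSK, the receptor kinase that clusters acetylcholine receptors, averaged 1.001 ± 0.544 FPKM in Tibetan, 2.85 ± 0.185 FPKM in Wujin and 12.2 ± 2.28 FPKM in Large White (SD, n = 3 each). MUSK fell by 2.74 in Tibetan against Large White (adjusted p = 2.36e-06) and fell by 1.77 in Wujin against Large White (adjusted p = 0.00445), an order of breeds like that of DCX. CHRNA1, the alpha subunit of the muscle acetylcholine receptor, averaged 1.76 FPKM in Tibetan, 19.4 FPKM in Wujin and 39.3 FPKM in Large White, and fell by 3.87 in Tibetan against Large White (adjusted p = 4.34e-06).

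Among the 4 genes, ERBB3 tracked NES most closely and STMN2 tracked DCX. The Pearson correlation of log2(FPKM + 1) over the 9 libraries was 0.994 between ERBB3 and NES and 0.944 between STMN2 and DCX, while it was 0.792 between DCX and NES and 0.818 between ERBB3 and DCX. All such values share the gap between Tibetan and the other libraries and are given as descriptions. Of 8063 symbols compared, those most like ERBB3 were VASH1, FGD1, ARL10, EFS and PRR32, with correlations of 0.9991 to 0.9989. PRR32 averaged 0.275 FPKM in Tibetan, 89.5 FPKM in Wujin and 93.4 FPKM in Large White. Those most like NES were ACAP3, NACC1, KIF7, INCENP and CHTF18, from 0.9991 to 0.998. Those most like STMN2 were SNX7, ZNF410, SHTN1, SMURF1 and MPLKIP, from 0.9852 to 0.9799. Those most like DCX were KIF24, EPHA3, EFR3B, DLG2 and SCG5, from 0.9966 to 0.9914. EPHA3, an ephrin receptor, averaged 0.0595 FPKM in Tibetan, 1.87 FPKM in Wujin and 16.1 FPKM in Large White, and KIF24, a kinesin, averaged 0.229 FPKM in Tibetan, 2.39 FPKM in Wujin and 9.54 FPKM in Large White. DLG2 and SCG5 are listed at 0 in all Tibetan libraries.

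Genes beside the 4 on the chromosome were also read. The 3 nearest tested and named genes on each side in the RefSeq gene order of the Sscrofa11.1 assembly made 24 neighbours. In Tibetan against Large White 18 were called lower and 3 higher, beside 63.2% and 13.0% of all entries. In Wujin against Large White 0 were called with limma, beside 4.85% of all entries lower and 1.67% higher. With median-ratio scaling 14 were lower and 6 higher in Tibetan against Large White, beside 33.0% and 32.4% of all entries. In Wujin against Large White 1 was then higher, beside 244 of the 13106 entries. The 6 neighbours of ERBB3 were at -1.41 to -0.26 in Tibetan minus Large White, against -4.71 for ERBB3 itself. Beside DCX, CAPN6, a calpain relative that stabilises microtubules, averaged 12.7 FPKM in Tibetan, 184 FPKM in Wujin and 257 FPKM in Large White and fell by 4.23 in Tibetan against Large White (adjusted p = 1.8e-07). AMOT, on its other side, rose by 1.87 (adjusted p = 0.002). Beside NES, CRABP2, a retinoic acid binding protein, averaged 1.12 FPKM in Tibetan, 81.8 FPKM in Wujin and 101.6 FPKM in Large White and fell by 5.62 in Tibetan against Large White (adjusted p = 1.48e-07).

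Markers of several other cell types moved with the breeds. Summed over the 7 matched fibroblast markers the level was 329 to 367 FPKM in Tibetan, 2931 to 5205 FPKM in Wujin and 4985 to 5516 FPKM in Large White libraries. All 7 were called lower in Tibetan against Large White, beside 63.2% of all entries. With median-ratio scaling 7 were called lower, beside 33.0% of all entries. The 6 pericyte and smooth muscle markers summed to 167 to 193 FPKM in Tibetan, 678 to 712 FPKM in Wujin and 521 to 671 FPKM in Large White libraries, and the 6 erythroid markers to 149 to 580 FPKM in Tibetan, 1470 to 3838 FPKM in Wujin and 1931 to 3744 FPKM in Large White libraries. The 6 endothelial markers summed to 58.9 to 72.9 FPKM in Tibetan, 98.9 to 120.2 FPKM in Wujin and 111 to 117 FPKM in Large White libraries. Their median log2 change in Tibetan minus Large White was -0.6, no lower than the -0.77 of all entries. With median-ratio scaling 1 of the 6 was called lower and 2 higher, beside 33.0% and 32.4% of all entries. The 5 leukocyte markers summed to 7.42 to 15.4 FPKM in Tibetan, 6.65 to 12.2 FPKM in Wujin and 11.4 to 15.8 FPKM in Large White libraries, and the 6 epithelial markers to 7.60 to 11.0 FPKM in Tibetan, 9.13 to 14.4 FPKM in Wujin and 3.68 to 5.33 FPKM in Large White libraries. The 7 melanocyte markers summed to 1.98 to 2.57 FPKM in Tibetan, 2.70 to 5.11 FPKM in Wujin and 25.3 to 25.8 FPKM in Large White libraries, with KIT, a receptor kinase shared with other cells, at 24.4 FPKM on average in Large White. The 4 matched skeletal muscle markers summed to 3362 to 44855 FPKM in Tibetan, 7627 to 8704 FPKM in Wujin and 4431 to 5446 FPKM in Large White libraries, the lowest Tibetan value being Tibetan 2 with ACTA1 at 0. The part of these cell types in the results for ERBB3, STMN2, DCX and NES was not tested.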

How the data were processed

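RNA was read in 9 libraries of embryonic longissimus dorsi. Per the labels' protocols, RNA was taken up with Trizol and made into TruSeq libraries. The authors deposited 1 table of FPKM per gene and library, per the file headers. The submitters' processing notes name TopHat, with no version; how FPKM were computed, and on which genome build, is not given in the sources used. Of 19643 entries, 56.91% matched a symbol. Columns were assigned by header, and 2 Wujin columns share one. Entries averaging at least 1 FPKM over all libraries were fitted on log2(FPKM + 1), pseudocount 1, with limma 3.58.1 in R 4.3.3 (breed means, eBayes with trend), after a test on simulated data; p-values were adjusted over all 13106 entries. No counts are given, so no counting interval can be had. The 4 genes and the gene lists were chosen with earlier results of these data known, and lists get counts, not tests. Named are the 4 genes, list members of smallest p, family relatives and the 5 most correlated symbols; the neighbours, and which of the listed genes are described, were chosen after values were seen. Alternatives were another pseudocount, filter or scaling, a fit of 2 breeds, a replicate block and leaving out each library. Some listed genes enter the counts and sums but are not reported by name here.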

Additional observations from a re-analysis of the deposited data

How the results depend on the processing

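With limma, all 4 genes kept direction and call in Tibetan against Large White and against Wujin under every alternative run, as did DCX in Wujin against Large White. There ERBB3 and NES stayed uncalled; ERBB3 was near 0 and changed sign, from -0.05 without Wujin a to 0.25 with median-ratio scaling. STMN2 has a mean under 5 FPKM, so the filter at 5 FPKM gives it no value. Over the alternatives, Tibetan minus Large White ranged from -6.46 to -2.82 for ERBB3, -4.19 to -0.84 for STMN2, -7.02 to -2.81 for DCX and -5.69 to -4.55 for NES. STMN2 in Wujin minus Large White lost its call with a pseudocount of 0.1 (-1.18), no filter (-0.88), median-ratio scaling (-0.66), quantile scaling (-0.61), equal totals without the 50 highest entries (-0.77) and 2 breeds alone (-0.88), and ranged from -1.03 to -0.67 when each library was left out; the cause was not tested. RNF41, beside ERBB3, reversed with median-ratio and quantile scaling, to 0.24 and 0.29 in Tibetan minus Large White and to 0.08 and 0.08 in Tibetan minus Wujin.

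The number of genes called in Wujin against Large White was 855, and it was 270 with a pseudocount of 0.1, 1831 with 5, 402 with a filter at 5 FPKM, 410 with median-ratio scaling, 453 with equal totals, 280 with 2 breeds, and 66 to 1633 without each library (390 and 409 without Tibetan 1 and 3, 430, 141 and 1633 without Wujin 1, a and b, 184, 88 and 66 without Large White 1, 2 and 3). In Tibetan against Large White 9983 were called, 5533 at 5 FPKM and 9240 to 10410 without each library; in Tibetan against Wujin 8871, 5181 and 8024 to 9578.

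A replicate block on the numbers shared by Tibetan and Large White gave -4.71 for ERBB3, -2.17 for STMN2, -4.80 for DCX and -5.45 for NES and changed none of these calls. Over all entries tested, the deviations of same-numbered libraries from their breed means correlated at 0.013, -0.023 and -0.076. A correlation over all entries cannot show whether a shared number stands for a batch that acts on some genes, which was not tested. Comparisons with Wujin have no block, because its columns lack numbers.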
